A study of Mus musculus with 36 samples.

Results

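The expression of 10 genes of the mouse red cell membrane and its skeleton was followed through 36 spleens. They were chosen by symbol, from 18194 genes that at least 1 probe set of the array names on its own: Slc4a1, Ank1, Sptb, Epb42, Rhag, Rhd, Kel, Ermap, Aqp1 and Xpo7. Together they have 24 probe sets, of which 19 passed the filter on low signal and were tested. The 5 that did not pass all belong to Xpo7, and each of the 10 genes kept at least 1 tested probe set. Each gene is represented below by its brightest probe set, by the mean over the arrays, unless another is named.

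The spleens came from 18 arthritic and 18 non-arthritic mice at 4 months of age, with 1 Affymetrix array for each spleen. The series is titled as a study of mice deficient for the interleukin 1 receptor antagonist, and its design text calls the animals F2 mice and asks whether the arthritic ones fall into subpopulations. No genotype, allele, sex or arthritis score is given per mouse in these labels, and the design text gives a count of animals that differs from its own group sizes. Which parental strains were crossed, and whether every non-arthritic mouse lacked the antagonist, is left unsaid there too.

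The red cell membrane is held to a meshwork of spectrin, and the anchors are ankyrin and protein 4.2, which bind the anion exchanger band 3. Around band 3 sit the Rh proteins and other blood group antigens. These genes are switched on while erythroid precursors mature, and the red pulp of the mouse spleen is a site of red cell production throughout life. In whole spleen RNA, with every array scaled to the same mean, signals are relative. A lower signal can mean a smaller share of erythroid cells among all cells or less RNA in each, and these cannot be told apart.

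The stretch around the transcription start was read for the 7 members that the RefSeq promoter table (build GRCm38.p6) holds. These are Sptb, Epb42, Rhag, Rhd, Kel, Ermap and Aqp1. Each window runs from 250 bases before the start to 50 bases after it. The 3 motifs searched, on both strands, were AGATAA (bound by GATA factors), CCNCNCCC (bound by KLF factors) and CANNTG (the E-box). AGATAA was found in 3 of the 7 windows (Epb42, Rhd and Kel), against 11.2% of the 32851 windows in the table. CCNCNCCC was found in 3 of the 7 (Sptb, Rhd and Aqp1), against 49.5%, and CANNTG in 5 of the 7, against 72.3%. The sequences of Rhd, Kel and Epb42 are written out because they hold AGATAA, and that of Aqp1 because it holds CCNCNCCC and an E-box but not AGATAA and its signal followed that of Rhd closely. Capitals mark AGATAA and CCNCNCCC on either strand, so that TTATCT is AGATAA on the other strand. In Rhd (chr4:134864286-134864585, plus strand) AGATAA begins at position -43 when the start is counted as 0, and in Kel (chr6:41704276-41704575, minus strand) it begins at position -56. In Epb42 (chr2:121036828-121037127, minus strand) it lies farther out, at position -226. Aqp1 (chr6:55336049-55336348, plus strand) has 3 copies of CCNCNCCC and none of AGATAA. In Rhd, the last base of an E-box that is not capitalised is also the first base of CCNCNCCC. A match is a run of letters in this window and was not tested as a binding site. Other forms of these motifs were not searched, so a window without a match can still hold one of them.
Rhd: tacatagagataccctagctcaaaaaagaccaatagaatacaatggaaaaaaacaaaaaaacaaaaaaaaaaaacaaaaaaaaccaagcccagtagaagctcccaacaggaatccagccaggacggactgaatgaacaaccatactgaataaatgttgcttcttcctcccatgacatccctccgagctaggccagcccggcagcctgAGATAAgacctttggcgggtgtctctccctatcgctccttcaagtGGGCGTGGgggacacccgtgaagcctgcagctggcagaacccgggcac
Kel: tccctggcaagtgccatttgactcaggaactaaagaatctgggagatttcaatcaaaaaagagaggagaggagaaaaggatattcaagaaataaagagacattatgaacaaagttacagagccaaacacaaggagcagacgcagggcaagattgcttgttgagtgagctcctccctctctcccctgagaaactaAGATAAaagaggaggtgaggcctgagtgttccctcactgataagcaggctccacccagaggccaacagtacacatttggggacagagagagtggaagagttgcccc
Epb42: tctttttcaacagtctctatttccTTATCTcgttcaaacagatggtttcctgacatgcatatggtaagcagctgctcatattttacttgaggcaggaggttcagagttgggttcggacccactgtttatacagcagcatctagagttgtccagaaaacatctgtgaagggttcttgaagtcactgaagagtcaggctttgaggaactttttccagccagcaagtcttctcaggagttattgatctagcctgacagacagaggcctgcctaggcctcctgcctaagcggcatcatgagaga
Aqp1: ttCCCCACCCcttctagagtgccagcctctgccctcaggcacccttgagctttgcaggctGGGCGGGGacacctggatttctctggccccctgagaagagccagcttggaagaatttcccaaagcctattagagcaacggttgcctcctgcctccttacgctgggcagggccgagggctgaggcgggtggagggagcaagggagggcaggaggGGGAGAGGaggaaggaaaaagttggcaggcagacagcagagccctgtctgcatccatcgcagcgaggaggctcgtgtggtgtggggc

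Every array had been scaled to the same trimmed mean of 500.0 (with 2% of probe sets taken off each end), and median intensities ran from 111 to 183. Values are given as log2 of the intensity plus 16, on which a difference of 1 is a doubling. Levels of different probe sets are not comparable, since each probe set has its own brightness. The number of arrays limits the precision. The labels name no batch. The arrays were clustered by the signals of 18 bacterial and phage control probe sets, which are added at hybridisation. A cut into 3 clusters, a number that was chosen, gave spike-in batches A (9 arthritic and 4 non-arthritic), B (6 and 10) and C (3 and 4). Group and batch therefore overlap in part. A cut into 2 clusters did not separate A from B. The mean log2 ratio of the 3 prime to the 5 prime Actb control probe set, which rises as RNA becomes less complete, was 0.345 ± 0.175 (SD, n = 13) in batch A. It was 0.671 ± 0.301 (SD, n = 16) in batch B and 0.531 ± 0.112 (SD, n = 7) in batch C. Markers of spleen were present: the B cell gene Cd79a had a mean of 13.12 in the arthritic and 13.05 in the non-arthritic mice, and Spic, of red pulp macrophages, 11.76 and 11.54. Il1rn, which encodes the antagonist, had 1 probe set past the filter, with a range of 4.85 to 7.48 in the arthritic and 5.44 to 7.62 in the non-arthritic mice (difference -0.04, limma adjusted p = 0.941). The position of its probes relative to the targeted part is not stated in these sources, and the value does not check a genotype. One array, arthritic replicate 18 of batch B, was the lowest of the 36 for all 10 members. It was the lowest for 9.29% of all 12427 genes, and values without it are given below.

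No member passed the test between arthritic and non-arthritic mice. With limma over 27022 probe sets and an adjusted p under 0.05, 0 of the 10 genes and 0 of the 19 probe sets were called, where 0.0481% of all probe sets (13) were called in either direction and 0% lower in arthritic mice. All 10 genes had a mean below that of the non-arthritic mice, and so did 14 of the 19 probe sets, while 49.1% of all probe sets had a difference below 0. The members were correlated across mice, as given below. Counts of members, here and in the later tests, are therefore not counts of independent results. The median difference of the 10 genes was -0.23, against 0.00 (-0.00234) for all 12427 genes. Without arthritic replicate 18 it was -0.16, with all 10 genes still below 0 and 0 called. At an unadjusted p under 0.05, limma picked 2 of the 10 genes (Ermap and Xpo7), where 15.7% of all probe sets were picked. A Wilcoxon test picked 0 after adjustment, where 0% of all were called, and 3 genes before it (Rhag, Ermap and Xpo7), where 15.4% of all were picked.

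Slc4a1 encodes band 3, the anion exchanger that is the most abundant integral protein of the red cell membrane. Its log2 signal ran from 13.09 through a median of 13.97 to 14.46 in the arthritic mice, and from 13.36 through 14.25 to 14.60 in the non-arthritic mice. The groups overlapped almost fully: 1 arthritic mouse lay below every non-arthritic one and 3 non-arthritic mice lay above every arthritic one. The means were 13.96 ± 0.36 (SD, n = 18) and 14.16 ± 0.35 (n = 18), which is a difference of -0.20 (SE 0.11, limma adjusted p = 0.371). Batch A gave 0.24, batch B -0.45 and batch C -0.12, and all arrays but arthritic replicate 18 gave -0.15. The range was 2.86-fold over all 36 mice and 2.37-fold without that replicate. Of its further probe sets, 1434502_x_at differed by -0.18 and 1431743_a_at by 0.11 (adjusted p = 0.282 and 0.946), and the mean of its probe sets by -0.09.

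Ank1 encodes ankyrin-1, which ties band 3 to spectrin. Its log2 signal had a lowest value of 10.09, a median of 11.61 and a highest of 12.30 in the arthritic mice, against 10.74, 11.93 and 12.70 in the non-arthritic mice. Arthritic replicate 18 was lowest and non-arthritic replicate 12 highest, 6.10-fold apart, with 12 of the 18 arthritic mice below the non-arthritic median. The difference was -0.33 (SE 0.19, limma adjusted p = 0.395), while batch A gave 0.49, batch B -0.98 and batch C -0.20. Without arthritic replicate 18 it was -0.24, and the range 4.76-fold. Its 3 further probe sets went different ways (1425677_a_at -0.17, 1443291_at 0.18, 1452512_a_at 0.17), and the mean of all 4 gave -0.04.

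Sptb, the beta chain of red cell spectrin, had a longer low end in the arthritic mice, though the test of spread, given below, called no member. In the arthritic mice it ran from 9.18 through a median of 10.72 to 11.36, and in the non-arthritic mice from 10.34 through 10.71 to 11.43. The medians were alike, but 6 of the 18 arthritic mice lay below the lowest non-arthritic mouse. These were replicate 1 of batch A and replicates 10, 14, 15, 16 and 18 of batch B. The difference of means was -0.17 (SE 0.15, limma adjusted p = 0.589), and the SD was 0.58 in arthritic against 0.30 in non-arthritic mice. Batch A gave 0.16, batch B -0.68 and batch C -0.10. The difference without arthritic replicate 18 was -0.09 and the arthritic SD 0.48. The second Sptb probe set, 1455226_at, differed by 0.01, and the mean of both by -0.08.

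Epb42 encodes protein 4.2, a stabiliser of the link between band 3 and ankyrin, and it had the largest spread of the 10 genes. Its values ran from 9.07 through a median of 10.57 to 11.91 in arthritic mice and from 9.68 through 10.74 to 11.80 in non-arthritic mice, a range of 7.16-fold over all mice. The groups overlapped along nearly their whole length, and the difference was -0.11 (SE 0.22, limma adjusted p = 0.840). Batch A gave 0.21, batch B -0.66 and batch C -0.05. With arthritic replicate 18 left out, the difference was -0.01 (-0.0139) and the range 5.12-fold. The second probe set, 1417338_at, differed by 0.06, and the mean of both by -0.02.

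Rhag and Rhd make up the Rh complex. Rhag, the Rh-associated glycoprotein, which is needed for Rh antigens to reach the surface and is thought to carry ammonia or gas, ran from 11.17 through 12.09 to 13.03 in arthritic mice and from 11.20 through 12.47 to 13.01 in non-arthritic mice. Although the ends of the ranges almost coincided, 16 of the 18 arthritic mice were below the non-arthritic median. The difference was -0.26 (SE 0.15, limma adjusted p = 0.374), while batch A gave 0.34, batch B -0.52 and batch C -0.08, and all arrays but arthritic replicate 18 gave -0.21. Rhd, the mouse Rh blood group protein, ran from 10.75 through 12.90 to 13.46 in arthritic and from 12.14 through 12.86 to 13.37 in non-arthritic mice. Its arthritic median was the higher of the pair, yet 5 arthritic mice, all of batch B, lay below every non-arthritic mouse. The difference of means was -0.27 (SE 0.18, limma adjusted p = 0.468). With arthritic replicate 18 left out it was -0.16.

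Kel and Ermap encode blood group antigens. Kel, a membrane metalloprotease that carries the Kell antigens, ran from 10.44 through 12.16 to 12.96 in arthritic and from 11.48 through 12.17 to 12.94 in non-arthritic mice. As with Sptb and Rhd, the medians were alike and the low end was longer in the arthritic mice. Of these, 4 lay below all non-arthritic mice, and all 4 were of batch B. The difference was -0.10 (SE 0.17, limma adjusted p = 0.809), while batch A gave 0.32, batch B -0.74 and batch C -0.02. The value without arthritic replicate 18 was -0.0075. Ermap, an immunoglobulin-like membrane protein that carries the Scianna antigens, ran from 11.84 through 13.13 to 13.78 in arthritic and from 12.58 through 13.39 to 13.87 in non-arthritic mice, with 14 of the 18 arthritic mice below the non-arthritic median. Its difference of -0.28 (SE 0.13) had an unadjusted p of 0.0347 and a limma adjusted p of 0.279. Batch A gave 0.20, batch B -0.71 and batch C -0.06, and all arrays but arthritic replicate 18 gave -0.21.

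Aqp1 encodes the water channel of the red cell, which endothelium also makes. It ran from 12.42 through 13.55 to 13.96 in arthritic mice and from 12.93 through 13.63 to 14.16 in non-arthritic mice. The groups overlapped except at 1 mouse on either end, and the difference was -0.15 (SE 0.12, limma adjusted p = 0.544). Batch A gave 0.35, batch B -0.53 and batch C -0.13, and all arrays but arthritic replicate 18 gave -0.09. Xpo7 differs from the other 9 in kind: it encodes exportin 7, a nuclear transport receptor and not a membrane protein, and it is strongly expressed in maturing erythroid cells. It ran from 12.74 through 13.27 to 13.65 in arthritic mice and from 12.89 through 13.62 to 13.99 in non-arthritic mice. Of the arthritic mice, 17 of 18 lay below the non-arthritic median, and 6 non-arthritic mice lay above every arthritic one. Its difference of -0.30 (SE 0.09), or 1.23-fold, had the smallest p of the 10 genes, 0.00197 before and 0.116 after adjustment by limma. The 2 further tested probe sets of Xpo7 differed by -0.26 and -0.25 (limma adjusted p = 0.348 and 0.515). The mean of all its probe sets, those under the filter included, differed by -0.07. For the first, batch A gave -0.01, batch B -0.50 and batch C -0.18, and without arthritic replicate 18 it was -0.27.

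**Figure D1:**
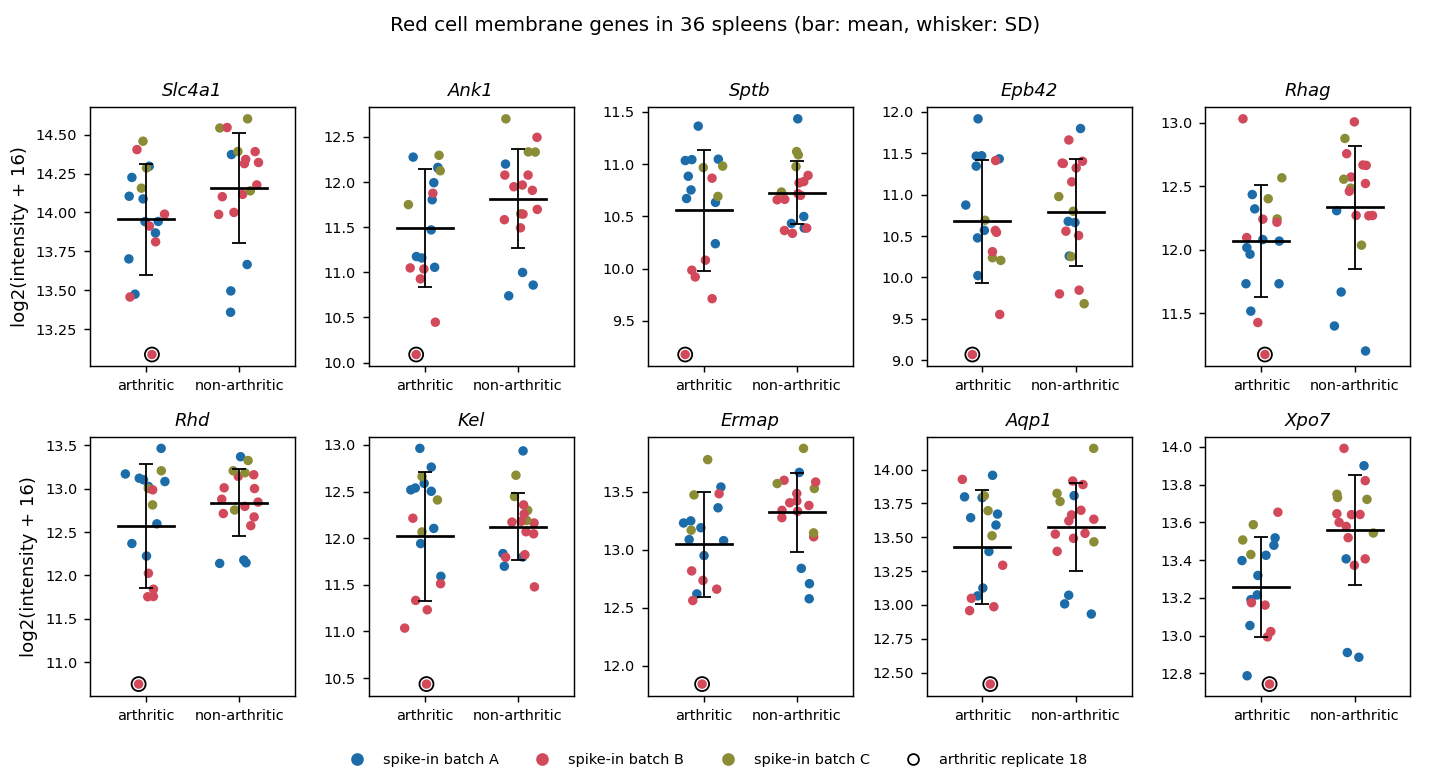
Each panel plots 1 gene as log2 of intensity plus 16 (y axes differ) in 18 arthritic and 18 non-arthritic mice, with 1 point per mouse coloured by spike-in batch, a bar at the mean and a whisker of 1 SD. The groups overlap in every panel, and the circled arthritic replicate 18 is the lowest point of all 10.

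The spread of the members was wide for genes of this array. The SD over 36 mice was 0.69 for Epb42, 0.62 for Ank1, 0.58 for Rhd, 0.55 for Kel, 0.48 for Rhag, 0.46 for Sptb, 0.42 for Ermap, 0.38 for Aqp1, 0.36 for Slc4a1 and 0.31 for Xpo7. The median SD of the 10 was 0.47, against 0.30 over all 12427 genes, and Epb42 exceeded 95.3% of genes while Xpo7 exceeded 52.6%. Deviations from the group median were larger in arthritic mice for 9 of the 10 genes, where 57.1% of all probe sets had the same sign, and the exception was Rhag. With limma on these deviations 0 of the 10 genes passed, where 0% of all probe sets did. Sptb and Kel had an unadjusted p under 0.05, where 7.66% of all probe sets did, with differences in mean absolute deviation of 0.20 (SE 0.10) and 0.28 (SE 0.12). Without arthritic replicate 18 the deviations were larger in arthritic mice for 6 of the 10 genes, where 54.6% of all probe sets had that sign. Kel (0.21, SE 0.10) alone then had an unadjusted p under 0.05, where 6.37% of all probe sets did, and the median SD of the 10 was 0.42. At the upper end no single mouse led: non-arthritic replicate 12 was highest for 4 members, arthritic replicate 4 for 3, and 3 other mice for 1 each.

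The members rose and fell together from mouse to mouse. Over the 45 pairs of the 10 genes the median Pearson r across 36 mice was 0.801 (range 0.364 to 0.950) and the median Spearman rho 0.724 (0.255 to 0.921). Of these pairs 29 had r of at least 0.7, where 0.5% of all 77208951 pairs of genes did, and the median r of all pairs was 0. After Benjamini-Hochberg adjustment over the 45 pairs, all 45 had a permutation p under 0.05 by r and 43 by rho, the others being Epb42 with Slc4a1 (permutation adjusted p = 0.0854) and with Xpo7 (0.133). The smallest p that the permutations can give is 1e-05. Without the 2 mice farthest from the median of the first gene of each pair, the median r was 0.716 (0.254 to 0.928). Without arthritic replicate 18 it was 0.743.

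Ermap and Aqp1 had the tightest link, with r = 0.950 and rho = 0.913, followed by Rhd with Aqp1 (r = 0.940) and Sptb with Kel (r = 0.938, rho = 0.901). Rhd was the gene nearest to all others, with a median r of 0.917 to the other 9. Sptb and Rhag, although both were strongly linked to Ermap and Aqp1, were linked more loosely to each other over the 36 mice (r = 0.465, rho = 0.381). Within spike-in batches A, B and C the r of this pair was higher, at 0.752, 0.787 and 0.854. Epb42, by its representative probe set, stood farthest out, with a median r of 0.501 to the other 9. Its r to them was 0.527 to 0.817 in the arthritic mice and 0.0877 to 0.392 in the non-arthritic mice, a difference that was not tested. Within spike-in batch A its r to the others was 0.576 to 0.903, within B 0.591 to 0.851, and within C, with 7 mice, -0.0263 to 0.475. With the mean of each group in each batch taken off, the median r was 0.642 for Epb42 and 0.67 for Xpo7. Among non-arthritic mice of batch B, this Epb42 probe set was 11.15 to 11.66 in replicates 13 to 18 and 9.80 to 10.56 in replicates 3, 4, 7 and 8. The second Epb42 probe set had 9.16 to 9.83 and 9.30 to 9.57 in the same mice.

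The correlation was also present inside groups and batches. The median r was 0.810 among the 18 arthritic and 0.741 among the 18 non-arthritic mice, and 0.899, 0.887 and 0.828 within batches A, B and C. After the means of each group in each batch were taken off, the median r was 0.833 and 33 of the 45 pairs reached 0.7, where 0.194% of all pairs did. With the Actb ratio taken off as well, the median was 0.880. The part of RNA quality in the correlation was not tested further.

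**Figure D2:**
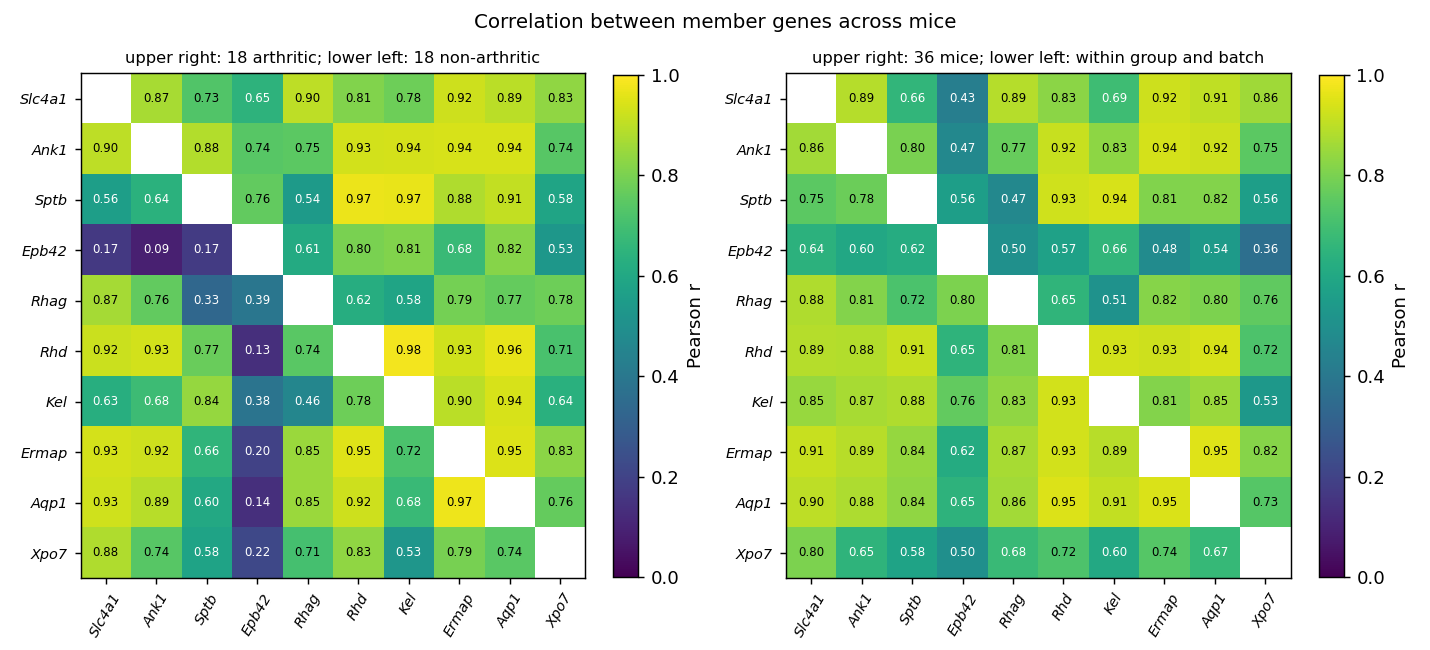
Both squares give Pearson r for each pair of the 10 genes on a colour scale from 0 to 1, the left one in arthritic (upper right) and non-arthritic mice (lower left), the right one in all 36 mice (upper right) and for deviations within group and batch (lower left). Epb42 has the darkest cells, with r of 0.0877 to 0.392 among the non-arthritic mice, and Ermap with Aqp1 reaches 0.950 over all mice.

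The sign of the group difference varied between the spike-in batches, and the test of that variation, given below, called no member. In batch A, 9 of the 10 genes were higher in arthritic mice, with a median difference of 0.28, whereas all 10 were lower in batch B (median -0.67) and in batch C (median -0.11). The medians over all genes were -0.03, 0.02 and 0.00 (0.00468) in the 3 batches. Within batch B, 7 of the 10 genes and 11 of the 19 probe sets were lower in arthritic mice by limma, where 2.65% of all probe sets were lower and 2.77% higher. The 7 were Ank1, Sptb, Rhd, Kel, Ermap, Aqp1 and Xpo7, which are correlated and not independent calls. A fit on the batch B arrays alone called 6 genes and 9 probe sets, where 1.45% of all probe sets were lower: Aqp1 had an adjusted p of 0.0647 there, and the lowest adjusted p of a member was 0.0258. Within A and C no member was called, where 0.0037% and 0% of all probe sets were. In batch B the log2 Actb ratio was 0.342, 0.634, 0.711, 0.762, 0.861 and 1.45 in the arthritic mice. It was 0.320, 0.417, 0.429, 0.457, 0.463, 0.566, 0.584, 0.765, 0.859 and 1.11 in the non-arthritic mice. The r of the 10 representative probe sets to this ratio within batch B ran from -0.274 (Sptb) to 0.258 (Epb42). The part of RNA completeness in the batch B differences was not tested.

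Of the 10 representative probe sets, that of Rhd had the largest difference within batch B. Its 6 arthritic mice ran from 10.75 through a median of 11.80 to 12.99, and its 10 non-arthritic mice from 12.57 through 12.86 to 13.16. Of the 6, 5 lay below all 10 non-arthritic mice, and the exception was arthritic replicate 17. The difference was -1.03 (SE 0.21, limma adjusted p = 0.00733), or 2.04-fold. In batch A the same gene had a difference of 0.45 (SE 0.24, adjusted p = 0.473), and in C of -0.11 (SE 0.31).

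Ank1 followed with -0.98 (SE 0.23, limma adjusted p = 0.0126) in batch B, from an arthritic range of 10.09 to 11.88 and a non-arthritic range of 11.49 to 12.50. In batch A it had a difference of 0.49 (SE 0.26, adjusted p = 0.463). Kel (-0.74), Ermap (-0.71), Sptb (-0.68), Aqp1 (-0.53) and Xpo7 (-0.50) were also lower in batch B. For Slc4a1 (-0.45, adjusted p = 0.0576), Rhag (-0.52, adjusted p = 0.0900) and the representative probe set of Epb42 (-0.66, adjusted p = 0.205) the same comparison did not pass, while the second Epb42 probe set did (-1.10, adjusted p = 0.00907). Further probe sets lower in batch B were 1 of Slc4a1 (1431743_a_at, -1.97, adjusted p = 0.0262), 1 of Ank1 (1425677_a_at, -0.89, adjusted p = 0.0341) and 1 of Xpo7 (1415682_at, -0.67, adjusted p = 0.0241). The Slc4a1 value rests in part on signals near the floor. In arthritic replicates 14, 15 and 18 the intensity of 1431743_a_at was 3.90, 15.5 and 10.8, under the 16 added before the log. That probe set also fell with the Actb ratio, as given below.

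The calls within batch B depended on single mice. Without arthritic replicate 18, 1 of the 10 genes was called, Rhd (-0.81, SE 0.19, limma adjusted p = 0.0375), where 0.466% of all probe sets were lower. All 10 genes were still below 0 (-0.82 for Ank1 to -0.32 for Slc4a1), with a median of -0.47. Without arthritic replicate 14 or 15 there were 4 genes, where 0.64% and 1.25% of all probe sets were lower. Without replicate 17 there were 9, where 5.02% of all were lower. Leaving out each of the other 12 mice of the batch gave 6 or 7, where 1.45% to 4.47% of all were lower. The test of whether the group difference itself differs between batches, an F test of the interaction over 27022 probe sets, called 0 of the 10 genes at an adjusted p under 0.05, where 0.037% of all probe sets were called, and the lowest adjusted p was 0.0671, for Rhd. Before adjustment 9 of the 10 genes had a p under 0.05, where 16.7% of all probe sets did, and the exception was Epb42. As the members are correlated, these 9 are not independent results. With batch as a block, the median group difference was -0.25 and 0 of the 10 genes passed, where 0% of all probe sets did.

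**Figure D3:**
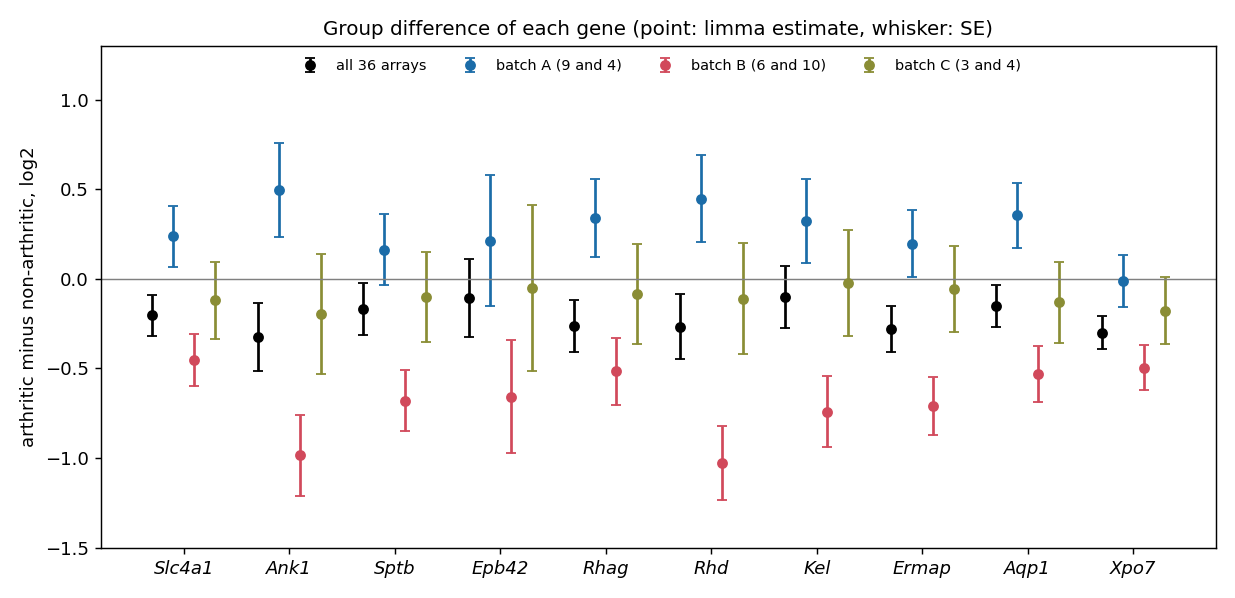
Points give the arthritic minus non-arthritic difference of each gene in log2 units, with whiskers of 1 SE from limma, over all 36 arrays (black) and within spike-in batches A, B and C. Batch B lies below 0 for all 10 genes, batch A above 0 for 9 of them, and the values over all arrays lie between -0.33 and -0.10.

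Levels of some members also differed between batches, with group held in the model. An F test called 4 of the 10 genes (Slc4a1, Sptb, Rhag and Kel), where 48.1% of all probe sets were called, so the share was near that of the array as a whole. The direction was mixed. Sptb was 0.51 (SE 0.14, limma adjusted p = 0.00391) and Kel 0.61 (SE 0.17, adjusted p = 0.00383) higher in A than in B, where 25.4% of all probe sets were higher, whereas Rhag was lower in A by a difference of -0.43 (SE 0.15, adjusted p = 0.0220), where 19.1% were lower. Sptb (0.57, SE 0.17, adjusted p = 0.0237) and Kel (0.65, SE 0.20, adjusted p = 0.0317) were also higher in C than in B, where 4.35% of all probe sets were higher and 5.43% lower, and no member was lower there. Slc4a1 was lower in A than in C (-0.44, SE 0.15, adjusted p = 0.0231), and so was Rhag (-0.54, SE 0.19, adjusted p = 0.0304), where 12.5% of all probe sets were lower and 15.8% higher.

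Probe sets of the same gene did not always follow each other. For Slc4a1 the probe sets 1416464_at and 1434502_x_at had r = 0.759 (rho = 0.772, permutation adjusted p = 4.67e-05 over 14 pairs of probe sets), but 1431743_a_at had r = 0.206 with the first and -0.264 with the second. The log2 signal of 1431743_a_at ran from 4.31 in arthritic replicate 14 to 11.46 in arthritic replicate 5, while that of 1434502_x_at ran from 13.25 to 14.42. The low end of 1431743_a_at is an intensity of 3.90, under the 16 added before the log, so no fold is given for it. The log2 Actb 3 prime to 5 prime ratio was 1.45 in arthritic replicate 14, the highest of all, and 0.186 in arthritic replicate 5, an array of batch A.

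Over the 36 mice, 1431743_a_at fell with that ratio (r = -0.661, rho = -0.665, permutation adjusted p = 0.00038 over 38 relations) and 1434502_x_at rose with it (r = 0.647, rho = 0.722, permutation adjusted p = 0.00038). Without the 2 mice farthest from the median ratio, r was -0.570 and 0.709. Within batches A, B and C the r of 1431743_a_at was -0.821, -0.440 and -0.283, and that of 1434502_x_at 0.464, 0.510 and 0.724. In a limma fit with group and batch, a log2 ratio larger by 1 went with -2.97 for 1431743_a_at (SE 0.78, adjusted p = 0.0108), where 6.95% of all probe sets fell, and with 0.50 for 1434502_x_at (SE 0.14, adjusted p = 0.0190), where 2.62% rose. The representative 1416464_at had r = 0.236 (permutation adjusted p = 0.260). The position of each probe set along the transcript is not stated in these sources.

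**Figure D4:**
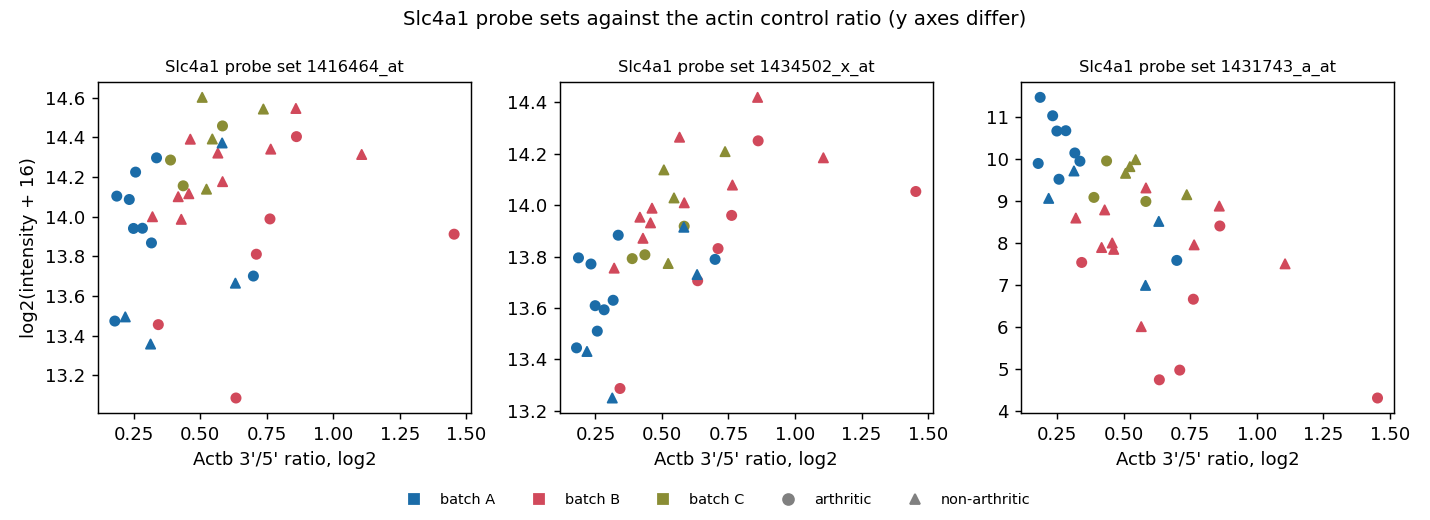
Each panel plots 1 Slc4a1 probe set, as log2 of intensity plus 16, against the log2 Actb 3 prime to 5 prime ratio of the array, with 36 points coloured by batch and shaped by group. The middle probe set rises with the ratio, the right one falls from about 11.46 to 4.31, and the left one has r = 0.236.

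A second probe set of Epb42 (1417338_at, r = -0.550, rho = -0.642, permutation adjusted p = 0.00247) and a dim one of Ank1 (1452512_a_at, r = -0.510, rho = -0.557, permutation adjusted p = 0.00684) also fell with the Actb ratio over all mice. Within batch B their r was -0.209 and -0.0692. Of the 10 representative probe sets, 0 were related to the Actb ratio after adjustment by r, with r from -0.380 to 0.324, and 2 to the Gapdh ratio (Rhag, r = 0.425, and Xpo7, r = 0.434; permutation adjusted p = 0.0327 and 0.0316). Within batch B those were -0.0506 and 0.346, and within A 0.201 and 0.547. By rho, Xpo7 was also related to the Actb ratio (rho = 0.449, permutation adjusted p = 0.0225). Its r to that ratio was 0.566, 0.00804 and 0.690 within batches A, B and C. Slc4a1 was related to the Gapdh ratio by rho (0.421, permutation adjusted p = 0.0313), as were Rhag and Xpo7.

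The genes most like each member over the 36 mice were found among all 12427 genes by Pearson r. For Slc4a1 the first 10 were Mki67 (r = 0.938), Dmtn (0.931), Tfrc (0.931), Rbm38 (0.930), Rrm2 (0.925), Ppp1r15a (0.925), Klhl12 (0.924), Stom (0.924), Ccna2 (0.918) and Cenpe (0.908). Dmtn encodes dematin, an actin-bundling protein of the red cell skeleton, Stom stomatin, and Tfrc the transferrin receptor that brings iron into erythroid precursors. Of the other 12426 genes, 421 (3.39%) had r of at least 0.7 to Slc4a1.

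The first 3 of each other member were Ubac1, Cdkn2c and Slc38a5 for Ank1 (r from 0.952 to 0.943), and Klf1, Grina and Trim10 for Sptb (0.936 to 0.928). Klf1 encodes an erythroid transcription factor, and it was also second for Rhd (0.967), after Trim10 (0.970) and before Pigq (0.962). Rhag was followed by Birc5 (0.953), Ybx3 (0.946) and Rrm2 (0.937), and Kel by Tspan33 (0.962), Abcg4 (0.947) and Tk1 (0.946). Ermap had Slc38a5 (0.969), Slbp (0.958) and Ubac1 (0.957), and Aqp1 had Cldn13 (0.960), Urod (0.958), an enzyme of haem synthesis, and Ube2c (0.950). Xpo7 had Slc25a37 (0.870), the mitochondrial iron carrier, Mki67 (0.865) and Ctse (0.854). Epb42 again stood apart, with Cul4a (0.910), Slc30a9 (0.891) and Rab43 (0.835).

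Other genes of the red cell were read from lists chosen with earlier results of these data known, and none of them passed the group test either. Of 23 other red cell membrane and skeleton genes, 0 were called, 19 had a difference below 0 (median -0.10), and 13 had r of at least 0.7 to Slc4a1. The smallest p values were those of Cd59a, an inhibitor of complement (-0.28, SE 0.10, limma adjusted p = 0.156), the potassium channel gene Kcnn4 (-0.34, SE 0.14, adjusted p = 0.218), Dmtn (-0.32, SE 0.15, adjusted p = 0.298) and Add2, beta-adducin (-0.29, SE 0.15, adjusted p = 0.334). The lowest r to Slc4a1 in this list were those of Bcam (-0.230) and Slc2a1 (-0.199). Piezo1 (0.0835), Xk (0.094), Slc29a1 (0.152) and Tpm3 (0.161) were also low.

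Of the list of haemoglobin and haem genes, the 9 tested were all genes of haem synthesis or mitochondrial transport, with no haemoglobin gene among them. Of these, 8 had a difference below 0 (median -0.22) and 7 had r of at least 0.7 to Slc4a1. The 4 with the smallest p were Slc25a37 (-0.23), Urod (-0.28), Alas2, the first enzyme of haem synthesis in red cells (-0.27), and Fech, the last (-0.24), with limma adjusted p from 0.239 to 0.404. Of 10 erythroid regulators, 9 were below 0 (median -0.10) and 8 had r of at least 0.7, with Gfi1b (-0.29), Gata1 (-0.21), E2f2 (-0.16) and Klf1 (-0.20) first by p. All 5 late maturation genes were below 0 (median -0.20), and 4 of them had r of at least 0.7. Ube2l6 (-0.32), Ube2o (-0.27), Ulk1 (-0.13) and Fbxo30 (-0.20) had the smallest p, from 0.318 to 0.523 after adjustment by limma.

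Markers of dividing cells had the highest median r to Slc4a1 of all the lists read. The 4 tested (Mki67, Top2a, Ccna2 and Cdk1) had a median r of 0.871 and a median group difference of -0.18, and Ccna2 had -0.32 (limma adjusted p = 0.286). Megakaryocyte and platelet genes came next among other cell types, with a median r of 0.512 and all 5 differences above 0 (median 0.24; Gp9 0.31, Itga2b 0.24, Gp1bb 0.27, Pf4 0.19). The 4 neutrophil genes had a median r of 0.501 and a median difference of 0.08 (S100a9 0.13, S100a8 0.08, Camp 0.08, Ltf -0.02). Red pulp macrophage genes had a median r of 0.0429 and a median difference of 0.10 (Spic 0.21, Vcam1 0.08, Cd5l 0.27, Hmox1 0.12).

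Of all lists, the B cell list had the lowest median r. The 3 B cell genes had a median r of -0.605 to Slc4a1, with differences of 0.15 for Ms4a1, 0.13 for Cd79b and 0.07 for Cd79a. The 4 T cell genes had a median r of -0.336 and a median difference of -0.07, with Cd3e at -0.47 (limma adjusted p = 0.128), Cd3d at -0.12, Cd2 at -0.02 and Cd3g at -0.01. Cd3e had r = 0.268 to Slc4a1, and the other 3 were below 0. The 7 endothelial genes had a median r of -0.232 to Slc4a1 and a median difference of 0.12 (Stab2 0.36, Eng 0.31, Pecam1 0.13, Tek 0.12). Their r to Aqp1, which endothelium also makes, was not read, and the part of endothelium in the Aqp1 signal was not tested. The 4 stromal genes had a median r of 0.0520 and a median difference of -0.46 (Col3a1 -0.42, Dcn -0.74, Lum -0.50, Col1a1 -0.22). The 3 genes of pancreatic acini, a neighbouring tissue, had a median r of -0.0519 and a median difference of -0.09 (Zg16 -0.36, Prss2 0.12, Cela3b -0.09). Their summed intensity ran from 226 to 24600 in arthritic and from 197 to 37310 in non-arthritic mice. None of these genes passed the group test, and the part of any of these cell types in the members' differences was not tested. The median differences within batches A, B and C were 0.28, -0.41 and -0.06 for the other membrane genes, 0.23, -0.49 and -0.08 for the haem genes, and 0.36, -0.66 and -0.08 for the dividing cell genes. For the B cell genes they were -0.24, 0.46 and 0.08, for the T cell genes -0.15, 0.21 and -0.05, and for the neutrophil genes 0.81, -0.47 and 0.49.

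**Figure D5:**
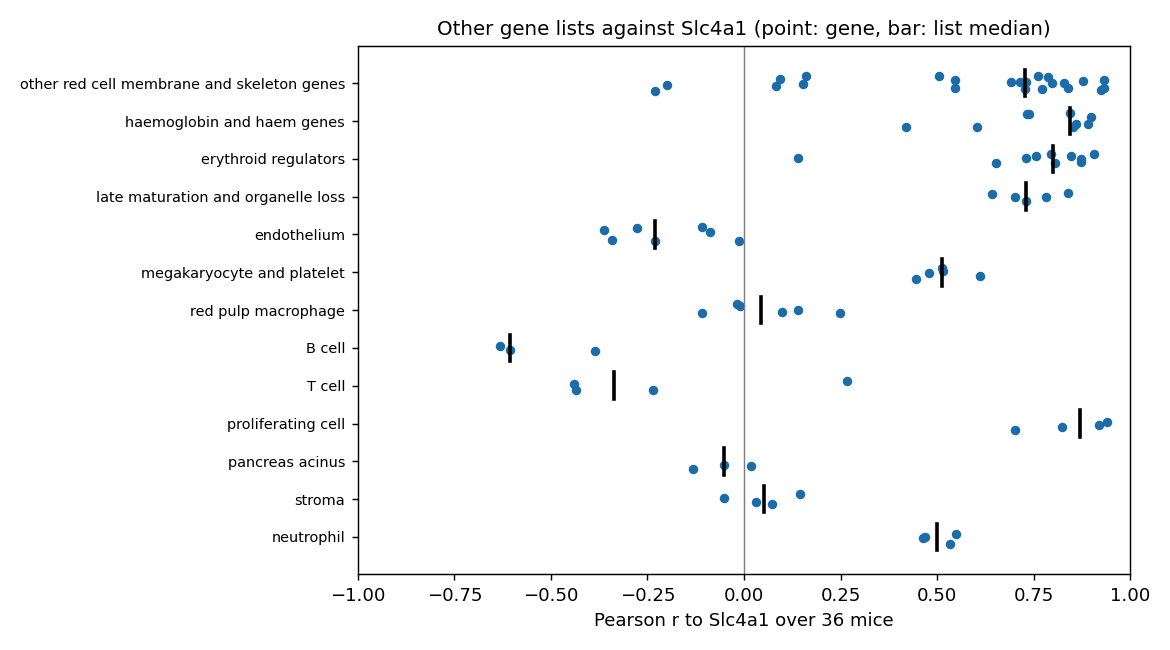
Each point is 1 gene of a list, placed by its Pearson r to Slc4a1 over 36 mice, with a black bar at the list median. The 4 red cell lists and the dividing cell list have medians of 0.727 to 0.871, and the B cell list has a median of -0.605.

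Within batch B some genes of these lists were called too, where 2.65% of all probe sets were lower and 2.77% higher. There, 6 of the 23 other membrane genes (Dmtn, Add2, Icam4, Mpp1, Tspan33 and Trim10) were lower in arthritic mice and 1, Slc2a1, was higher, and 5 of 9 haem genes, 3 of 10 regulators (Gata1, Klf1 and E2f2), 2 of 5 late genes and all 4 dividing cell genes were lower. Among other cell types, 2 of the 3 B cell genes (Cd79b and Ms4a1) were higher, 1 of the 6 macrophage genes (Adgre1) was lower, and 0 of the 7 endothelial, 5 megakaryocyte, 4 T cell, 4 stromal, 4 neutrophil and 3 acinar genes were called. In arthritic replicate 18 the median rank among the 36 mice, counted from the lowest, was 1 for each of the 4 red cell lists, the dividing cell list and the macrophage list. It was 36, the highest, for the B cell and the T cell lists, and 8 for the endothelial list. The summed intensity of the other membrane genes ran from 53480 through 86420 to 102000 in the arthritic and from 64310 through 86480 to 113000 in the non-arthritic mice. For the B cell genes the sums ran from 18540 through 27040 to 39750 and from 19260 through 26450 to 34540. The groups overlapped in both of these lists. Without arthritic replicate 18, the calls within batch B were Mpp1, Trim10, Klf1 and Fbxo30 among the red cell lists and Ms4a1 among the others, and 0 of the 9 haem and 0 of the 4 dividing cell genes passed, where 0.466% of all probe sets were lower. The median r to Slc4a1 was then 0.643 for the other membrane genes, 0.824 for the haem genes, 0.761 for the regulators, 0.656 for the late genes, 0.838 for the dividing cell genes and -0.539 for the B cell genes.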

How the data were processed

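Total RNA of individual spleens was extracted with Trizol, biotin labelled and hybridised to Affymetrix arrays, per the labels. The deposited values are linear intensity from MAS5, per the submitters' processing notes, in a version that the sources used here do not give. They were analysed as log2(value + 16), without further normalization, so differences understate the change of dim probe sets. The 64 control probe sets were left out of gene tests, as were probe sets whose mean lay below the 40th percentile (6.49), which left 27022. Genes were named from the platform annotation: 34958 of all 45101 probe sets name 1 gene, 932 name several and 9211 are not listed. Of the first, 34754 matched the RefSeq table (GRCm38.p6) by gene identifier.

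Groups, spread, batches and interactions were tested with limma 3.58.1 in R 4.3.3 (lmFit, eBayes with trend, two-sided, Benjamini-Hochberg over all tested probe sets, threshold 0.05), checked on simulated data. Correlations have two-sided permutation p-values with 100000 resamples (numpy 2.4.6, with ranks from scipy 1.17.1). The members and lists were chosen with earlier results of these data known, as was the centring of each array's control probe sets before Ward clustering into 3 batches. Named were all members, up to 4 genes a list by smallest unadjusted p, the 10 genes nearest Slc4a1 and the 3 nearest each other member. Icam4, Mpp1, Tspan33, Bcam, Slc2a1, Piezo1, Xk, Slc29a1, Tpm3 and Adgre1 were named after their values were seen. Alternatives were other pseudocounts, no filter, quantile normalization, no trend, batch, replicate and RNA ratio terms, a Wilcoxon test, gene means and each array left out.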

Additional observations from a re-analysis of the deposited data

How the results depend on the processing

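Over 10 genes and 11 alternatives, 109 of 110 group differences kept their direction and their side of the threshold and 0 reversed, as did 358 of 360 with 1 array left out. The count of members called between the groups, 0 as reported, was 1 with the replicate number as a block (Xpo7, -0.30, limma adjusted p = 0.0487), where 369 probe sets were called in all (1.37%). The numbers are not known to pair mice: same-numbered mice correlated with a median r of 0.151 (-0.228 to 0.473, 18 pairs, 11 over 0.1), and 2 arthritic mice were closest to their own number. Leaving out 1 array gave 0 to 1 members: Xpo7 passed without non-arthritic replicate 2 (-0.34, adjusted p = 0.0384, 389 probe sets called) and replicate 5 (-0.34, adjusted p = 0.0449, 250 called). The count over all probe sets, 13 as reported, was 13 or 14 with pseudocounts of 1 or 64, 1 with quantile normalization, 2 with the Gapdh and 37 with the Actb ratio as covariate, and 0 with no filter, no trend, the batch block, Wilcoxon or gene means. The number of members that differed between batches, 4 as reported, was 0 with 2 Ward clusters, 2 with the Gapdh and 2 with the Actb ratio as covariate, and 3 and 5 with 4 clusters and quantile normalization. Interaction and spread called 0 members under every alternative run. The median r of the 45 pairs ran from 0.743 to 0.82 with 1 array left out. The Actb covariate was added after seeing the data.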
